A study of Mus musculus with 6 samples.

Results

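The genes described here are the mouse axon guidance genes of 3 ligand systems: the semaphorins with their plexin and neuropilin receptors, the ephrins with the Eph receptors, and the netrins with their receptors. Membership was set by gene symbol alone, by a rule chosen with earlier results of these data known. Of the 22623 genes in the deposited table, 63 matched: 20 semaphorins, 11 plexins or neuropilins, 8 ephrins, 14 Eph receptors, 4 netrins and 6 netrin receptors. Nuclei came from subcutaneous tumors that formed after TC1 cells, a mouse epithelial lung tumor line, were injected into the flank of mice with a conditional allele of MCT2. MCT2, encoded by Slc16a7, is a monocarboxylate transporter with high affinity for pyruvate. Both groups were of a C57BL/6 line with 2 floxed MCT2 alleles (MCT2 loxP/loxP) and a tamoxifen-inducible Cre transgene. At 8 weeks of age the mice were given tamoxifen (KO) or vehicle (CO) daily for 5 days, and tumors were taken 24 days after the injection of the TC1 cells. There were 3 libraries of frozen tumor nuclei in each group.

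Some limits of the model bear on every value. The deletion was induced in the mouse and not in the implanted TC1 cells, and tamoxifen and deletion cannot be told apart because no tamoxifen-treated mice without Cre are among the samples used here. The labels do not say whether each library came from a separate mouse, so the p-values measure the spread between these 6 libraries. Slc16a7 transcripts were not lower in the libraries labelled KO: its counts over all nuclei were 127, 159 and 164 in CO and 264, 106 and 352 in KO (log2 fold change 0.45, SE 0.54, adjusted p = 0.730, edgeR). The tissue label reads lung, but of 10 genes of lung epithelium the surfactant genes Sftpc and Sftpa1, the club cell gene Scgb1a1 and the lung transcription factor gene Nkx2-1 had 0 counts in all 6 libraries, Epcam had 16, and the other 5 had 9 to 869.

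Semaphorins are secreted or membrane-bound ligands that signal through plexins, with neuropilins as co-receptors for the secreted class 3 members. Ephrins are membrane-bound ligands of the Eph receptor tyrosine kinases, and contact between cells can signal in both directions. Netrins are laminin-related secreted proteins bound by Dcc, neogenin (Neo1) and the Unc5 family. These systems were first described in growing axons, and they are also known in blood vessels, in immune cells and in tumors.

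Each library held between 13252572 and 22057084 UMI counts, and 17514 nuclei were kept, 7660 from CO and 9854 from KO. Clusters were built with the guidance genes left out and named from lists of marker genes, with "-like" added to each name. This gave 9090 mesenchymal-like nuclei in 7 clusters, each with 8 or 9 of 10 mesenchymal markers detected, 6061 macrophage-like nuclei in 4 clusters, each with 7 to 12 of 12 macrophage markers detected, and 778 T/NK-like nuclei with 10 of 11. With the mesenchymal markers used, implanted TC1 cells and mouse stroma of that kind cannot be told apart. Smaller classes were skeletal muscle-like (58 nuclei), adipocyte-like (67), host fibroblast-like (114), dendritic-like (158) and endothelial-like (182), and 1006 nuclei stayed unnamed. The class given by the clusters was the same as that given by counting markers in each nucleus for 73.0% of nuclei. There were 61 barcodes present in more than 1 library, which marked 165 kept nuclei and 0.503% of all UMIs. All 67 adipocyte-like nuclei were among them, on 13 distinct barcodes.

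Levels are given as CPM: the counts of a gene in a class and library, divided by all UMI counts of the gene table there and multiplied by 1000000. Guidance transcripts were unevenly spread over the classes. Of the 63 genes, Epha8 had 0 counts in all nuclei, and 8 others (Epha10, Ntn5, Unc5a, Unc5d, Plxnb3, Sema3g, Sema4f and Sema5b) had between 15 and 58 counts in all and did not pass the filter on low counts over all nuclei. The other 54 passed it.

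**Figure D1:**
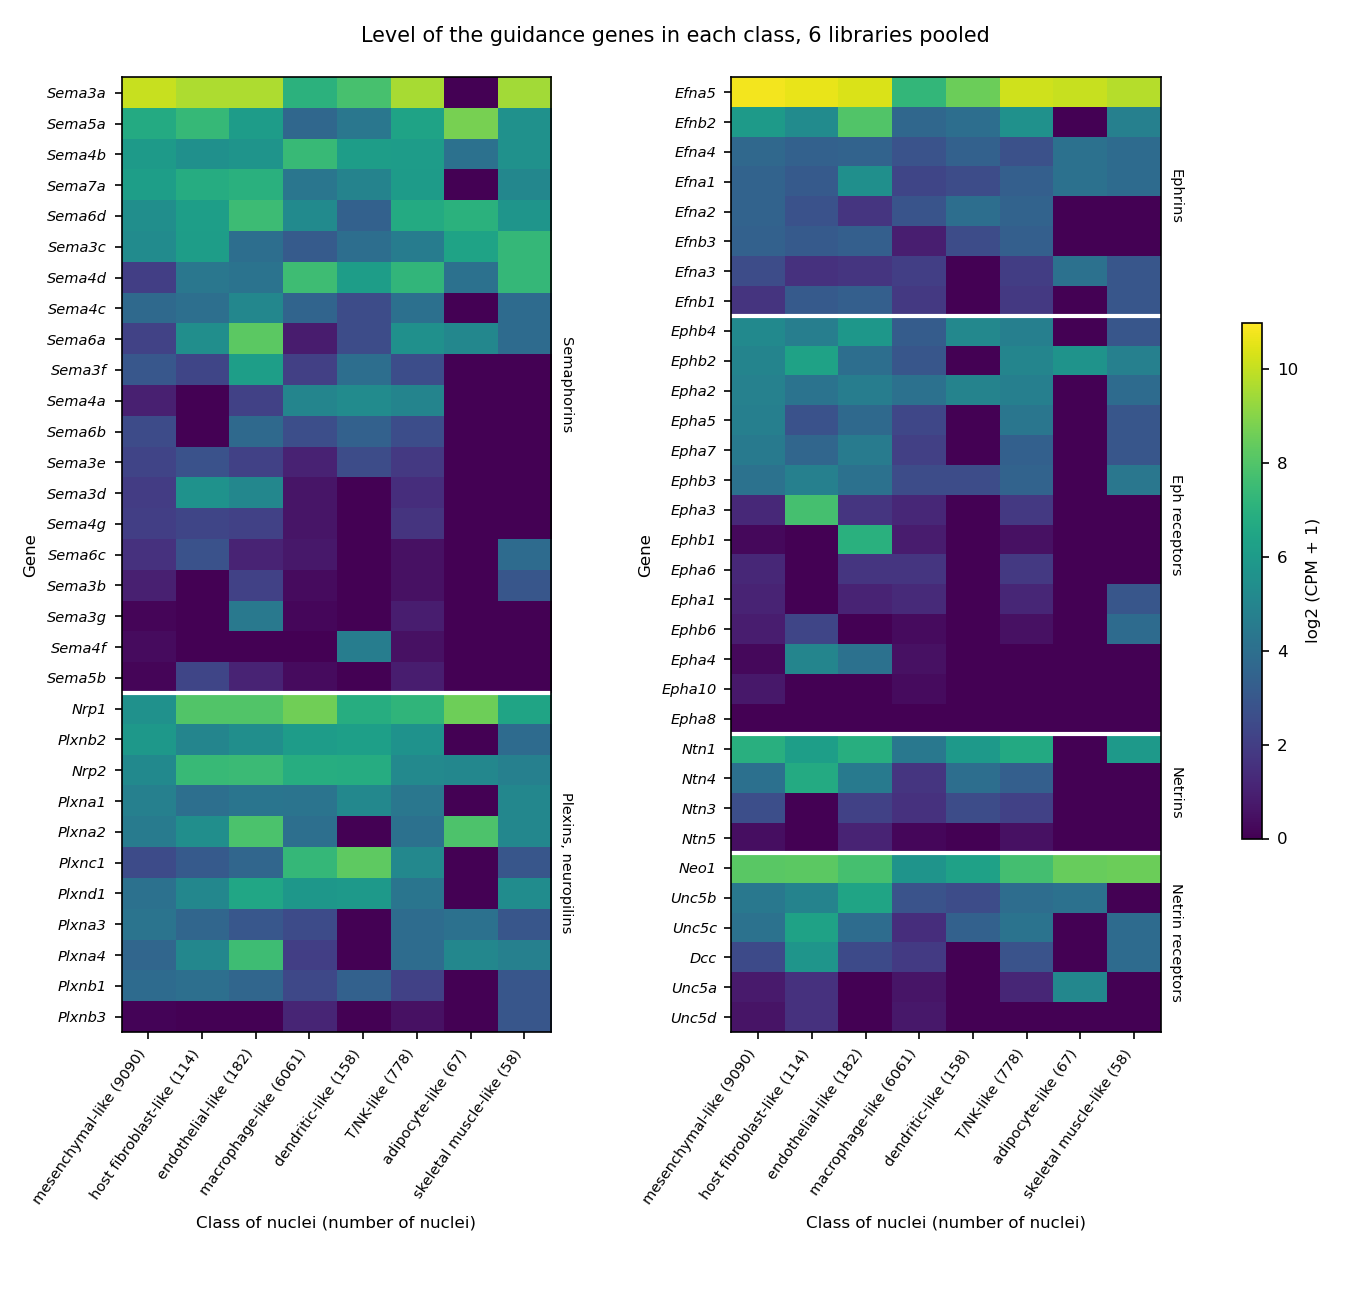
Each cell shows the level of a guidance gene (rows, grouped by family) in a class of nuclei (columns, with the number of nuclei), as log2(CPM + 1) of the 6 libraries pooled. Sema3a and Efna5 are bright in the mesenchymal-like column, Sema4d, Plxnc1 and Nrp1 in the macrophage-like column, Ephb1 and Sema6a in the endothelial-like column and Epha3 in the host fibroblast-like column, while small classes of under 100 nuclei have many cells at 0.

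Mesenchymal-like nuclei carried ligands of all 3 systems. Sema3a encodes a secreted ligand of neuropilin-1 and the class A plexins (GRCm38, chromosome 5, 13125414 to 13602565, plus strand), and its level in mesenchymal-like nuclei was 716, 822 and 923 CPM in CO and 1162, 1395 and 1302 CPM in KO. Efna5, the ephrin-A5 gene (chromosome 17, 62604184 to 62881317, minus strand), stood at 1194, 1377 and 2658 CPM in CO and at 1213, 2724 and 2226 CPM in KO. The Sema3a values of the groups did not overlap, whereas those of Efna5 did, with CO replicate 3 near the highest KO library. Ntn1, which encodes the secreted ligand netrin-1, was at 99.4, 121 and 157 CPM in CO and at 99.0, 144 and 143 CPM in KO. Its receptor gene Neo1 (chromosome 9, 58874687 to 59036441, minus strand) was at 257, 247 and 292 CPM in CO and at 256, 361 and 365 CPM in KO. For Neo1 and Ntn1 the lowest KO library was replicate 1, which lay within the CO range or at its edge.

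Other ligand genes with high counts in this class varied between libraries. Sema5a, a transmembrane semaphorin with thrombospondin repeats, was at 70.8, 81.0 and 240 CPM in CO and at 67.8, 141 and 100 CPM in KO, so that its spread within CO was wider than the distance between the groups. Sema7a, a GPI-anchored ligand of plexin C1, was at 73.5, 81.2 and 65.9 CPM in CO and at 62.6, 67.8 and 70.4 CPM in KO. Sema6d, a transmembrane ligand of plexin A1, was at 33.9, 40.6 and 36.0 CPM in CO and at 39.0, 49.9 and 54.8 CPM in KO. The groups overlapped for all 3 of these semaphorins. Efnb2, the gene of the transmembrane ligand ephrin-B2, was at 47.8, 41.4 and 86.1 CPM in CO and at 71.5, 66.2 and 72.8 CPM in KO. Efna4, which encodes the GPI-anchored ephrin-A4, was at 14.8, 16.03 and 10.2 CPM in CO and at 12.3, 8.42 and 9.37 CPM in KO. For Efnb2 a CO library was the highest of the 6, and for Efna4 the groups overlapped at CO replicate 3.

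Among the Eph receptors, mesenchymal-like nuclei carried Ephb4, Ephb2, Epha2 and Epha5 with the most counts. Ephb4, a receptor of ephrin-B2, was at 34.6, 36.7 and 46.8 CPM in CO and at 27.7, 38.0 and 40.3 CPM in KO. Ephb2, a receptor of the B ephrins, was at 24.6, 26.7 and 79.0 CPM in CO and at 26.0, 28.5 and 24.2 CPM in KO, so that CO replicate 3 stood apart from the other 5 libraries. Epha2, a receptor known in epithelial and tumor cells, was at 28.0, 24.6 and 29.8 CPM in CO and at 27.4, 27.9 and 30.2 CPM in KO, nearly level over all 6 libraries. Epha5, a receptor of the A ephrins, was at 20.7, 23.9 and 15.2 CPM in CO and at 38.4, 25.3 and 23.8 CPM in KO, and the lowest KO library lay just under the highest CO library.

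The class A plexins, receptor partners of neuropilins, and the netrin receptor Unc5b were in a similar position. Plxna1 was at 25.04, 27.3 and 32.7 CPM in CO and at 22.6, 28.4 and 30.7 CPM in KO. Plxna2 was at 19.6, 14.9 and 20.8 CPM in CO and at 15.6, 37.8 and 25.1 CPM in KO. Unc5b was at 19.2, 21.0 and 28.7 CPM in CO and at 15.2, 19.97 and 22.8 CPM in KO. All 3 overlapped between the groups.

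Macrophage-like nuclei carried another part of the list, mostly receptors and class 4 semaphorins. Nrp1 encodes neuropilin-1, a co-receptor for class 3 semaphorins and for VEGF (chromosome 8, 128358604 to 128503363, plus strand), and was at 344, 438 and 590 CPM in CO and at 219, 438 and 447 CPM in KO. Sema4d, a transmembrane ligand of plexin B1 known in immune cells (chromosome 13, 51685529 to 51793747, minus strand), was at 156, 225 and 184 CPM in CO and at 185, 232 and 182 CPM in KO. Plxnc1, the receptor of Sema7a (chromosome 10, 94790866 to 94944835, minus strand), was at 179, 169 and 158 CPM in CO and at 103, 236 and 175 CPM in KO. For each of these the groups overlapped, and for Nrp1 and Plxnc1 the lowest of the 6 libraries was KO replicate 1.

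Sema4b, a transmembrane class 4 semaphorin, was at 191, 194 and 188 CPM in CO and at 195, 128 and 119 CPM in KO, with KO replicate 1 at the CO level and the other two KO libraries lower. Nrp2, the neuropilin-2 gene, was at 77.2, 123 and 71.2 CPM in CO and at 151, 165 and 107 CPM in KO. Plxnb2, a receptor of class 4 semaphorins, was at 66.2, 48.9 and 69.9 CPM in CO and at 53.6, 75.4 and 85.0 CPM in KO. The groups overlapped for all 3. Plxnd1, a receptor of Sema3e, was at 46.0, 58.1 and 56.4 CPM in CO and at 41.0, 93.7 and 62.0 CPM in KO. Sema4a, a class 4 semaphorin known in immune cells, was at 27.6, 27.6 and 28.2 CPM in CO and at 43.8, 24.4 and 25.1 CPM in KO. The KO libraries of these genes spread to either side of the CO libraries.

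The classes were compared within each library, as a description with no test. Of the 45 guidance genes that passed the filter in the joint fit of both classes, 6 were higher in macrophage-like than in mesenchymal-like nuclei in all 6 libraries, where 28.5% of all genes were. These were Sema4d (mean level 55.6-fold higher), Plxnc1 (34.1-fold), Sema4a (30.5-fold), Nrp1 (8.12-fold), Plxnd1 (3.51-fold) and Sema4b (2.68-fold). They thus comprised 3 class 4 semaphorins, 2 plexins and a neuropilin. Nrp2 was 2.89-fold higher on average and was higher in 5 of 6 libraries, CO replicate 3 being the exception. Lower in macrophage-like nuclei in all 6 libraries were 28 of the 45, where 33.8% of all genes were, and the other 11 were mixed.

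By family, the lower genes were 7 of 14 semaphorins, 3 of 10 plexins and neuropilins, 6 of 8 ephrins, all 6 Eph receptors tested, all 3 netrins tested and 3 of 4 netrin receptors. No ephrin, Eph receptor, netrin or netrin receptor was higher in macrophage-like nuclei in all 6 libraries. The joint filter can be passed on counts in 1 class alone. On macrophage-like counts alone 21 guidance genes passed, among them 2 ephrins, 2 Eph receptors, 1 netrin and 1 netrin receptor. For genes that passed only through mesenchymal-like nuclei, a lower macrophage-like level was largely fixed in advance. In macrophage-like nuclei Efna5 stood at 8.95% of its mesenchymal-like level, Sema3a at 12.9%, Sema5a at 12.5%, Ntn1 at 15.8%, Neo1 at 19.1% and Ephb2 at 19.7%. The 10 mesenchymal markers, summed, stood in macrophage-like nuclei at 6.14% to 17.0% of their mesenchymal-like level over the 6 libraries. The mean shares of Efna5, Sema3a, Sema5a and Ntn1 were within that range, those of Neo1 and Ephb2 above it. Over single libraries the share ran from 4.68% to 14.4% for Efna5, from 5.95% to 19.9% for Sema3a, from 4.37% to 20.2% for Sema5a, from 4.62% to 29.1% for Ntn1, from 8.30% to 36.7% for Neo1 and from 3.73% to 39.98% for Ephb2. The part of mesenchymal transcripts in these levels was not tested. Within the mesenchymal list itself the share varied, from 8.48% for Mecom to 101% for Crabp1 and 124% for Igf2bp3. In the other direction, the 12 macrophage markers stood in mesenchymal-like nuclei at 1.47% to 6.97% of their macrophage-like level.

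**Figure D2:**
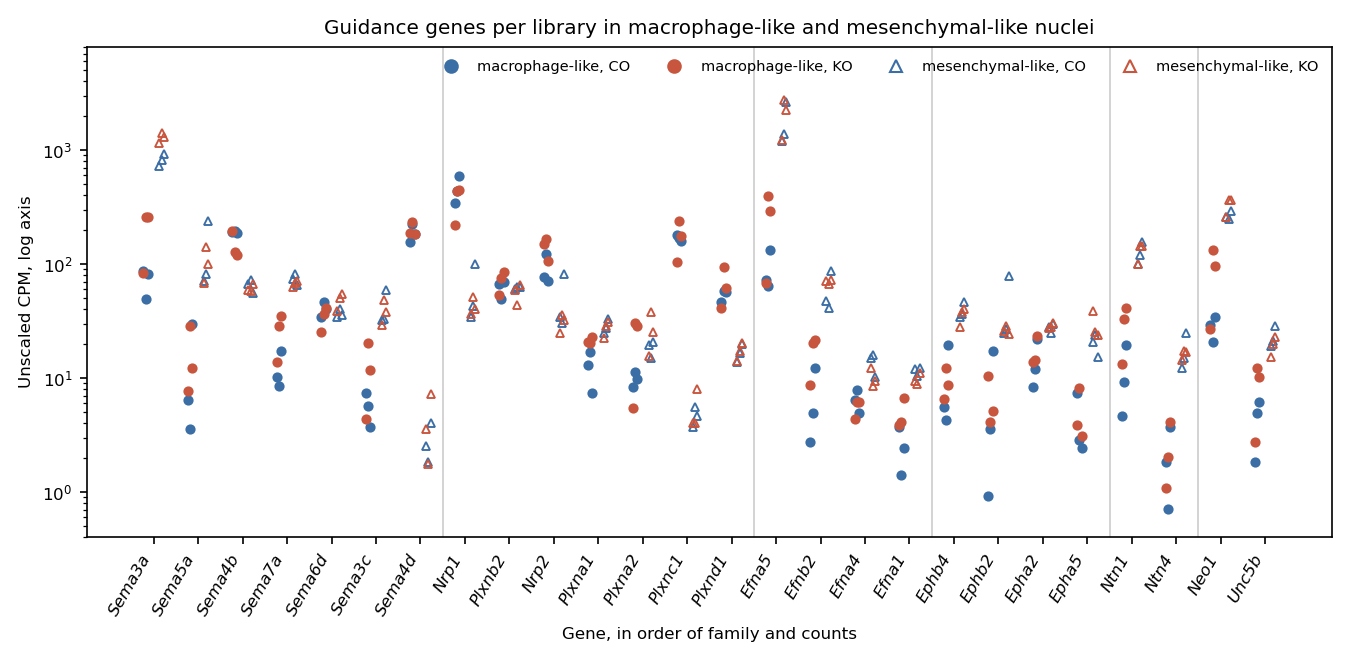
Each point is the level of a guidance gene in a library, in CPM on a log axis, for macrophage-like nuclei (filled circles) and mesenchymal-like nuclei (open triangles) of CO (blue) and KO (red). The classes are far apart for Sema4d and Plxnc1 (higher in macrophage-like nuclei) and for Sema3a, Efna5 and Ntn1 (higher in mesenchymal-like nuclei), while the groups mostly interleave within a class.

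Promoter windows of 300 bases were taken from RefSeq (GRCm38.p6, 250 bases before to 50 bases after an annotated start). They were used to see whether motifs of the transcription factors PU.1 and AP-1 set the macrophage-high genes apart. Of the 63 genes, 54 had 68 windows. The core of the PU.1 motif, GAGGAAGT, searched on both strands, was in 3.2% of all 32851 windows, in 0 of 12 windows of the 6 genes higher in macrophage-like nuclei, and in 0 of 25 windows of the genes lower there. For AP-1 the pattern TGANTCA was searched, where N is any base, which is wider than the consensus TGA(C/G)TCA. This pattern was in 7.81% of all windows, in 1 of those 12 and in 0 of those 25. The window that held it belongs to Sema4d (chr13:51748761-51749060, minus strand) and is printed 5′ to 3′ with the motif in capitals.
Sema4d: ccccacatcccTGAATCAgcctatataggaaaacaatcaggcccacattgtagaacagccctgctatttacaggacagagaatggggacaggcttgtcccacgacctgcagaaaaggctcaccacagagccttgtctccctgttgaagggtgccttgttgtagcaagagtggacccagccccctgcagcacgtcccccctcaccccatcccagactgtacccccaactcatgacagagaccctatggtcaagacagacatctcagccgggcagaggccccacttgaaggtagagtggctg
The match TGAATCA lies outside the consensus TGA(C/G)TCA. Outside these sets of windows, a window of Sema4c (chr1:36558332-36558631, minus strand) held TGACTCA, which is within the consensus. Sema4c was lower in macrophage-like than in mesenchymal-like nuclei in 5 of 6 libraries, at 88.2% of the mesenchymal-like level on average. A match is a description of letters and not of a bound site. With so few windows, these shares were not compared further.

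Small classes are given as counts pooled over the 6 libraries with exact 95% Poisson intervals, which cover counting error only. The 10 mesenchymal markers in these nuclei stood at 51.3% to 78.6% of their mesenchymal-like level in endothelial-like nuclei and at 9.56% to 87.8% in host fibroblast-like nuclei. Values were therefore also taken from nuclei of at most 3000 UMIs, a limit chosen after the data were seen. Mesenchymal markers remained there, at 22.7% to 57.6% in endothelial-like and 9.85% to 41.9% in host fibroblast-like nuclei. In endothelial-like nuclei Ephb1, a receptor of the B ephrins, was at 125 CPM (102 to 150, 109 counts) against 0.791 CPM in macrophage-like and 0.194 CPM in mesenchymal-like nuclei. Sema6a, a transmembrane ligand of the class A plexins, was at 296 CPM there (261 to 335, 259 counts) against 0.791 and 3.5 CPM. In nuclei of at most 3000 UMIs these levels were 146 and 644 CPM, so both genes stayed above their levels in the other two classes there (0.877 and 0.452 CPM for Ephb1, 0.730 and 4.74 CPM for Sema6a). In the 160 endothelial-like nuclei without a shared barcode they were at 127 and 298 CPM.

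Further vascular guidance genes were named after their values were seen. In endothelial-like nuclei Plxna4 was at 193 CPM, Plxna2 at 233 CPM, Efnb2 at 256 CPM, Sema3f at 69.8 CPM and the netrin receptor gene Unc5b at 85.8 CPM. Each was above the macrophage-like and mesenchymal-like levels, of which the higher was 11.3, 22.8, 62.0, 7.01 and 20.1 CPM. Nrp1 was not: in the 160 endothelial-like nuclei without a shared barcode it was at 235 CPM, below its macrophage-like level of 390 CPM. Its mesenchymal-like level was 46.1 CPM. Sema3g, a class 3 semaphorin known in arterial endothelium, had 18 of its 31 counts in endothelial-like nuclei, at 20.6 CPM (12.2 to 32.5), or 14 counts without the nuclei of shared barcodes.

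In host fibroblast-like nuclei the EphA receptor gene Epha3 was at 214 CPM (176 to 258, 111 counts) against 1.32 CPM in macrophage-like and 1.39 CPM in mesenchymal-like nuclei. Sema3d, a secreted class 3 semaphorin, was at 48.2 CPM (31.2 to 71.1, 25 counts) against 0.527 and 2.91 CPM. In nuclei of at most 3000 UMIs Epha3 was at 382 CPM and Sema3d at 95.4 CPM. Among the netrin genes, 3 named after their values were seen were above the mesenchymal-like level. Ntn4, which encodes a netrin of basement membranes, was at 104 CPM, and the receptor genes Unc5c and Dcc were at 80.9 and 52.0 CPM, against 15.8, 16.6 and 4.60 CPM in mesenchymal-like nuclei. Ntn1 was lower, at 71.3 CPM (50.2 to 98.3) against 123 CPM, Ntn3 had 0 counts, and for Neo1, at 299 CPM (253 to 350), the interval held the mesenchymal-like 294 CPM.

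In the remaining small classes the counts were few. Dendritic-like nuclei had Plxnc1 at 310 CPM (239 to 396, 64 counts), above the macrophage-like 159 CPM, and Nrp2 at 112 CPM (70.7 to 167, 23 counts), beside 116 CPM in macrophage-like nuclei. Adipocyte-like nuclei had Sema5a at 426 CPM (279 to 625, 26 counts) and Neo1 at 344 CPM (213 to 527, 21 counts), where mesenchymal-like nuclei had Sema5a at 105 CPM. Since every adipocyte-like nucleus carried a barcode present in several libraries, these counts are not from independent nuclei, their intervals are too narrow, and no value is left without the shared barcodes. Skeletal muscle-like nuclei had Sema3c, a secreted class 3 semaphorin, at 159 CPM (102 to 236, 24 counts) against 38.1 CPM in mesenchymal-like nuclei, and Neo1 at 364 CPM (274 to 473, 55 counts). Both intervals of Neo1 held the mesenchymal-like level of 294 CPM. T/NK-like nuclei had Sema6a at 45.1 CPM and Sema6d at 105 CPM, but 89 of the 106 Sema6a counts came from KO replicate 1.

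The mesenchymal-like nuclei were not uniform in these genes. Since guidance genes took no part in the clustering, each cluster was set against the other clusters of its class within every library. A pair of gene and cluster was counted if it differed at least 2-fold on pooled counts and in the same direction in all 6 libraries. There were 287 pairs of a guidance gene and a mesenchymal-like cluster (41 genes with at least 200 counts, 7 clusters). Of these, 24 (8.36%) were counted, against 3.64% of the pairs over all genes. The folds below are of pooled counts, and single libraries could be under 2-fold. For Nrp1 in cluster 1, KO replicate 3 was at 53.2 CPM against 37.0 CPM in the other clusters. For the 4 macrophage-like clusters it was 1 of 48 pairs (2.08%) against 2.31% of the pairs over all genes. Clusters were formed from genes measured in the same nuclei, so these shares are given with no test. The pairs are also not independent: Unc5c, Epha7 and Sema3c each entered several of the 24. A cluster high for a gene raises the level that the other clusters are set against.

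Of the mesenchymal-like clusters, cluster 1 (1961 nuclei, led by Gpm6b, Pde10a and Frmd5) held 6 of the 24 differences, all higher. Epha7, an EphA receptor gene, was at 37.6, 66.5 and 14.9 CPM in cluster 1 in CO and at 22.6, 128 and 71.1 CPM in KO, against 5.69 to 16.8 CPM in the other mesenchymal-like clusters (5.27-fold). Unc5c, a netrin receptor gene, was 4.10-fold higher and lay between 15.2 and 121 CPM, against 4.39 to 31.3 CPM. Sema3c was 3.51-fold higher, between 58.8 and 129 CPM against 22.3 to 36.7 CPM. Every library of Sema3c in cluster 1 was thus above every library of the other clusters. Both neuropilin genes and Sema5a followed: Nrp2 was 2.98-fold, Nrp1 2.31-fold and Sema5a 2.35-fold higher. Cluster 2 (1957 nuclei, led by Osbpl6, Atg9b and Ano3) was lower for 5 of the same 6 genes, Nrp1 being the exception. It was set against clusters that included cluster 1, so this is not a separate result.

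Cluster 13 (372 nuclei) was led by the immediate early and stress response genes Atf3, Ppp1r15a and Ier2. In it Epha2 was at 135, 82.2 and 310 CPM in CO and at 45.6, 186 and 113 CPM in KO, against 22.8 to 27.9 CPM in the other mesenchymal-like clusters (4.76-fold). Sema3e, the ligand of plexin D1, was 4.36-fold higher on 26 counts. The ligand genes Sema3a, Sema3c, Sema5a and Efna5 were lower there, by 2.09-fold, 2.42-fold, 2.57-fold and 2.50-fold. Cluster 13 was thus higher for Epha2 and the ligand gene Sema3e, and lower for the other ligand genes named here. The pair in the macrophage-like class was Sema4a, with 3 counts in cluster 12 (417 nuclei, led by Fcrl5, Klra17 and Cd300e).

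**Figure D3:**
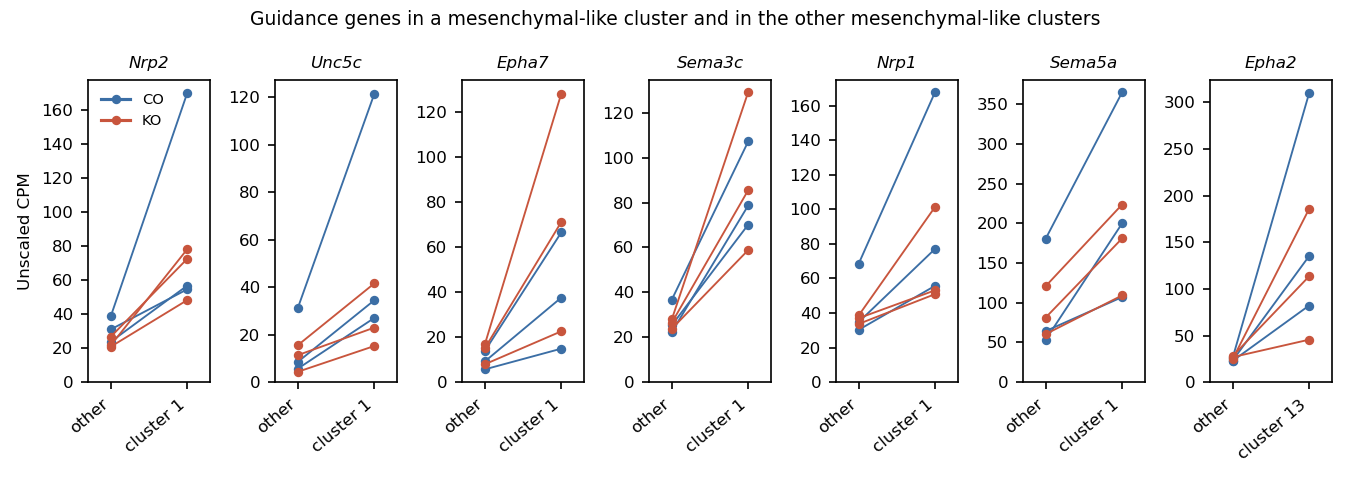
Each line joins the level of a gene in a library (CPM) between the other mesenchymal-like clusters and the named cluster, for CO (blue) and KO (red). All 6 lines rise in each panel, for Nrp2, Unc5c, Epha7, Sema3c, Nrp1 and Sema5a in cluster 1 and for Epha2 in cluster 13.

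The KO and CO libraries were then compared with edgeR on counts summed per library and class, where a call needed an adjusted p (Benjamini-Hochberg, over all genes tested) of 0.05 or less together with a log2 fold change of 0.58 or more either way. Over all nuclei 0 of 54 guidance genes were called, as were 0% of all 13662 genes, and 3 guidance genes had an unadjusted p under 0.05 (Efna2, Sema3a and Ephb6), beside 4.84% of all genes. DESeq2 called 0 guidance genes in this or any other comparison of the groups described here. In a sum over all nuclei, fewer cells of a type and less RNA per cell cannot be told apart. With classes from clusters, the share of nuclei per class differed between the groups by less than the SD of either: it was 34.0% ± 4.85 (SD, n = 3) in CO and 33.2% ± 13.2 in KO for macrophage-like nuclei (two-sided exact permutation test, p = 0.9), 50.9% ± 7.17 and 53.8% ± 15.3 for mesenchymal-like nuclei (p = 0.9), and 4.94% ± 1.52 and 4.12% ± 2.01 for T/NK-like nuclei (p = 0.5). With classes from marker counts in each nucleus the shares were further apart for mesenchymal-like nuclei, at 57.3% ± 6.09 (SD, n = 3) in CO against 73.2% ± 14.0 in the KO libraries (p = 0.2, exact permutation), and for macrophage-like nuclei, at 21.4% ± 4.51 and 13.4% ± 11.7 (p = 0.4, exact permutation). With 3 against 3 libraries that test cannot go below 0.1.

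In macrophage-like nuclei 0 of 21 guidance genes were called, as were 0% of all genes tested, and in mesenchymal-like nuclei 0 of 52, again beside 0%. In T/NK-like nuclei it was 0 of 19 beside 0%. Unadjusted p-values under 0.05 were found for 7, 4 and 3 guidance genes, beside 5.69%, 7.22% and 7.63% of all genes tested. In macrophage-like nuclei 17 of the 21 fold changes were above 0, with a median log2 fold change of 0.25 against 0.00 over all genes. In mesenchymal-like nuclei 28 of 52 were above 0, with a median of 0.03 against -0.02.

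**Figure D4:**
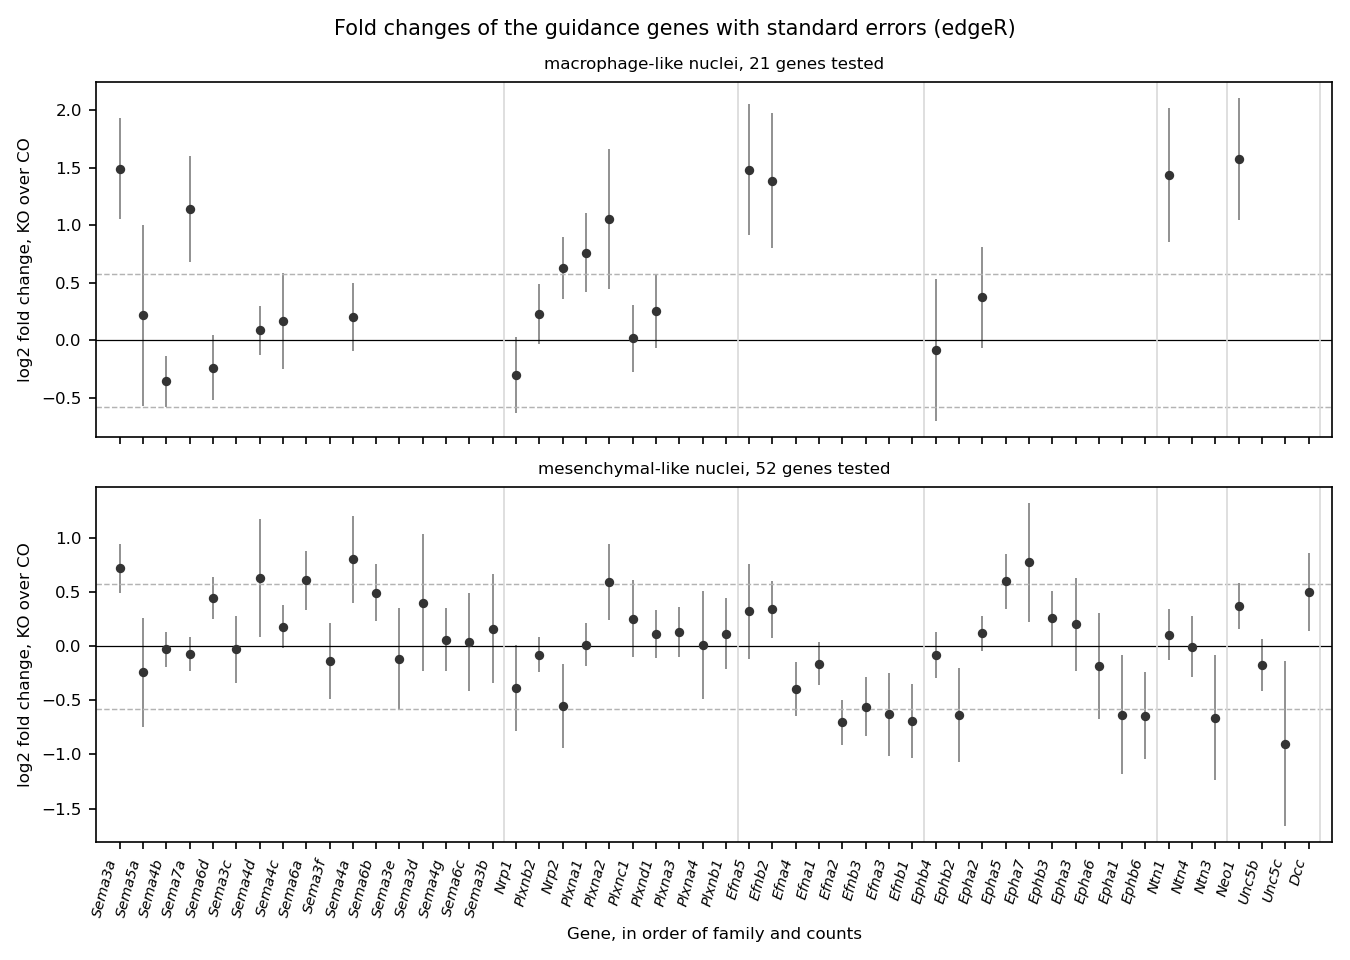
Points are log2 fold changes of KO over CO for each guidance gene tested, with standard errors, in macrophage-like (top, 21 genes) and mesenchymal-like nuclei (bottom, 52 genes), and dashed lines mark 0.58 either way. Sema3a, Neo1, Efna5, Ntn1 and Efnb2 lie highest in the macrophage-like panel with long error bars, and none of the genes was called.

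In mesenchymal-like nuclei the smallest p-values belonged to Efna2, Sema3a and Epha5. Efna2, the ephrin-A2 gene (chromosome 10, 80179482 to 80190010, plus strand), was at 14.9, 12.2 and 12.3 CPM in CO and at 8.48, 6.54 and 8.29 CPM in KO, without overlap, and its log2 fold change was -0.70 (SE 0.21, adjusted p = 0.565). For Sema3a, with 820 ± 103 CPM (SD, n = 3) in CO and 1286 ± 117 CPM in KO, it was 0.72 (SE 0.23, adjusted p = 0.565). For Epha5 it was 0.60 (SE 0.25, adjusted p = 0.565). The groups did not overlap for 6 of the 52 genes, beside 12.9% of all genes tested. KO was lower for Efna2, Efnb1 and Ephb6 and higher for Sema3a, Sema6a and Sema4a. Ephb6, Sema4a and Efnb1 had few counts in this class over all libraries, 52, 60 and 134, where Sema3a had 65828. By family, 6 of 8 ephrins had log2 fold changes below 0 (median -0.48), while 11 of 17 semaphorins (median 0.17) and 7 of 10 plexins and neuropilins (median 0.07) were above 0. The Eph receptors were split 5 and 5.

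In macrophage-like nuclei the smallest p-values belonged to genes that were far higher in mesenchymal-like nuclei. Sema3a was at 86.4, 48.9 and 81.0 CPM in CO and at 83.7, 259 and 260 CPM in KO (log2 fold change 1.49, SE 0.44, adjusted p = 0.780). Neo1 was at 29.4, 20.5 and 34.4 CPM in CO and at 26.8, 132 and 95.8 CPM in KO (log2 fold change 1.58, SE 0.53, adjusted p = 0.780). Efna5 was at 72.6, 64.5 and 133 CPM in CO and at 67.8, 393 and 289 CPM in KO (log2 fold change 1.48, SE 0.57, adjusted p = 0.780). In each case KO replicate 1 lay within the CO range and KO replicates 2 and 3 above it. The 10 mesenchymal markers, summed over macrophage-like nuclei, were likewise highest in KO replicates 2 and 3, at 1142, 811 and 1615 CPM in CO and 957, 3419 and 3545 CPM in KO. Of these markers, 6 had log2 fold changes above 0 in macrophage-like nuclei, led by Slit2 (1.69), Hmga2 (1.43) and Mecom (1.29), and 4 were below 0: Crabp1 (-0.92), Igf2bp3 (-0.27), Pthlh (-0.23) and Col12a1 (-0.12). The part of mesenchymal transcripts in the guidance values was not tested. The only guidance gene whose groups did not overlap in macrophage-like nuclei was Plxna1, at 12.9, 17.0 and 7.36 CPM in CO and 20.8, 20.4 and 23.0 CPM in KO (log2 fold change 0.76, SE 0.35, adjusted p = 0.780), beside 11.9% of all genes tested.

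**Figure D5:**
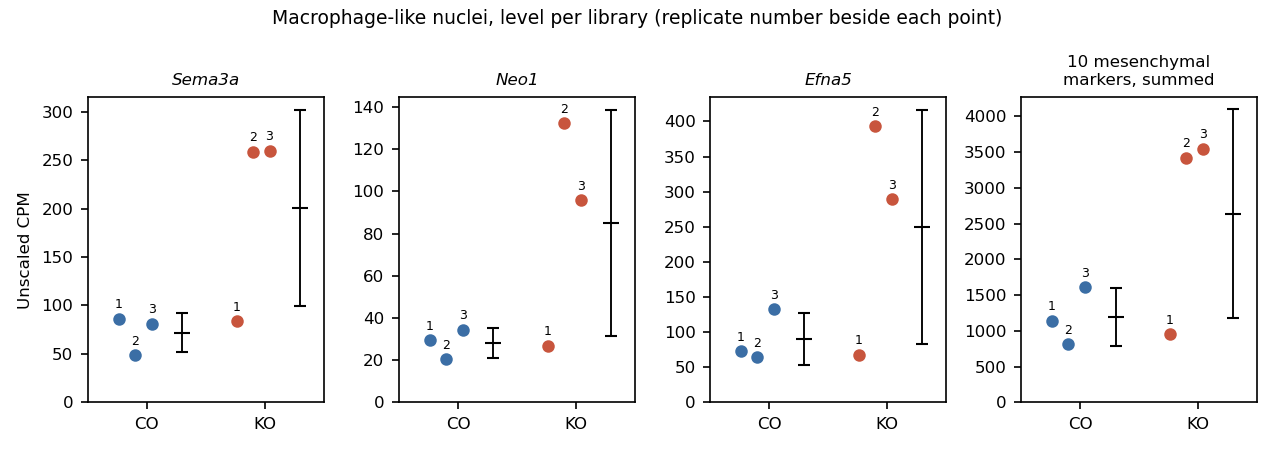
Points are the levels in macrophage-like nuclei of each library in CPM, with the replicate number beside each point and mean ± SD as bars, for Sema3a, Neo1, Efna5 and the sum of 10 mesenchymal markers. In all 4 panels KO replicates 2 and 3 are above the 3 CO libraries and KO replicate 1 is among them.

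These results depended on KO replicate 1. Without it, edgeR called 8 of 23 guidance genes in macrophage-like nuclei, where 19.8% of all genes tested were called: Sema3a, Neo1, Efna5, Ntn1, Efnb2, Sema7a and Plxna2 were higher and Sema4b was lower. The log2 fold changes were then 1.91 for Sema3a (adjusted p = 1.13e-04), 2.05 for Neo1 (adjusted p = 1.74e-04), 1.98 for Efna5 (adjusted p = 2.18e-04) and -0.60 for Sema4b (adjusted p = 0.0271). In mesenchymal-like nuclei 4 of 52 were called without it, where 19.4% of all genes were: Sema3a at 0.81 (adjusted p = 0.0350), Plxna2 at 0.89 (adjusted p = 0.0448) and Sema6d at 0.59 (adjusted p = 0.0347) were higher, and Efna2 at -0.76 (adjusted p = 0.0472) was lower. The share of guidance genes called in mesenchymal-like nuclei was thus below that of all genes.

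Whether the difference between KO and CO was itself different in the 2 classes was tested as an interaction, with the library as a block. Of 45 guidance genes 0 were called, as were 0% of all genes tested, and 8 had an unadjusted p under 0.05: Ntn1, Sema7a, Efna5, Sema6d, Nrp2, Neo1, Plxna1 and Plxna4, beside 7.82% of all genes. Of the 45, 35 had a fold change that was larger in the macrophage-like class, as had 61.2% of all genes, by a median of 0.61 on the log2 scale against 0.10 over all genes. Without KO replicate 1, 5 of 47 were called, where 2.2% of all genes were: Sema3a, Sema7a, Neo1, Ntn1 and Efna5. Without the filter on low counts, 4 of 62 were called (Nrp2, Neo1, Ntn1 and Efna5), beside 1.05% of all genes. The 5 genes called without KO replicate 1 were all lower in macrophage-like than in mesenchymal-like nuclei in every library.

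Gene length moved with the fold changes as well. In mesenchymal-like nuclei 80.6% of all genes that span at least 100 kb had a log2 fold change above 0 (median 0.32), against 42.2% of shorter genes (median -0.08). Of the guidance genes, 15 of 24 that span at least 100 kb were above 0 (median 0.23), as were 13 of 28 shorter genes (median -0.05). In macrophage-like nuclei 78.3% of all genes of at least 100 kb were above 0, against 45.1% of shorter genes, beside 9 of 11 and 8 of 10 guidance genes. Sema3a spans 477 kb, Efna5 277 kb and Neo1 162 kb, whereas Efna2 spans 10.5 kb. The limit of 100 kb was chosen after the values were seen, and the part of length in the guidance values was not tested.

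T/NK-like nuclei gave the smallest unadjusted p of the guidance genes, for Sema4d. It was at 98.3, 118 and 84.2 CPM in CO and at 324, 233 and 169 CPM in KO, without overlap, with a log2 fold change of 1.28 (SE 0.29, adjusted p = 0.402). Sema4c was at 6.41, 15.6 and 7.32 CPM in CO and at 30.03, 29.1 and 22.3 CPM in KO, also without overlap but on 3 to 10 counts per library (log2 fold change 1.44, SE 0.50, adjusted p = 0.575). Sema6d was at 38.4, 118 and 75.1 CPM in CO and at 270, 146 and 73.4 CPM in KO (log2 fold change 1.08, SE 0.48, adjusted p = 0.644). With Sema4b, which was lower in KO, 3 of 19 guidance genes did not overlap, beside 14.8% of all genes tested. The summed mesenchymal markers reached, in the T/NK-like nuclei of CO, 68.6% to 80.0% of what they were in mesenchymal-like nuclei. In those of KO it was 40.5% to 63.4%, without overlap as a share. As levels they overlapped, at 8864, 9056 and 14721 CPM in CO and 5319, 13320 and 13194 CPM in KO. In nuclei of at most 3000 UMIs the shares overlapped too, at 5.95% to 14.8% for CO and 8.54% to 29.2% for KO. The part of these markers in the Sema4d values was not tested. In nuclei of at most 3000 UMIs the log2 fold change of Sema4d was 0.37. Without the filter on low counts, 2 of 59 guidance genes were called in T/NK-like nuclei, Sema4d and Sema6a, beside 0.677% of all genes, and 89 of the 106 Sema6a counts came from KO replicate 1.

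Of 56 other genes of these pathways, such as plexin effectors, Eph adaptors and netrin co-receptors, 0 of 43 were called in macrophage-like and 0 of 48 in mesenchymal-like nuclei, and 2 and 3 had an unadjusted p under 0.05. Dscam, a netrin co-receptor, was at 4.60, 5.67 and 6.14 CPM in macrophage-like nuclei of CO and at 40.5, 10.2 and 21.0 CPM in those of KO (log2 fold change 2.22, SE 0.50, adjusted p = 0.780), and it was among the 10 leading genes of the T/NK-like cluster. Itgb1, an integrin subunit that binds Sema7a, had a log2 fold change of 0.46 (SE 0.19, adjusted p = 0.780). In mesenchymal-like nuclei the kinase gene Pak1 and the receptor gene Met had log2 fold changes of 0.59 and 0.62 (SE 0.22 and 0.23, adjusted p = 0.565 for both, edgeR). Without KO replicate 1, 10 of 43 and 7 of 50 of these genes were called, beside the 19.8% and 19.4% of all genes.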

How the data were processed

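Nuclei isolated from frozen tumors were profiled with the 10x Genomics 3′ v3.1 chemistry. The authors deposited raw UMI counts per gene and barcode for 6 libraries, aligned to GRCm38. The submitters' notes name Cell Ranger 3.0.2 and Seurat 5.2.1, while the matrix headers name version 3.1.0. Some samples received extra washes against ambient RNA; which ones is not given in the sources used here, nor is the handling of intronic reads. No barcode had fewer than 500 UMIs.

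Of 18865 barcodes, 18014 had 100 to 7500 genes and under 20% mitochondrial counts. The automatic threshold of Scrublet marked 11 barcodes (0.0611%), which is too few, so in each library the highest-scoring barcodes were dropped, 0.8% for every 1000 barcodes (500 in total), leaving 17514 nuclei. Median UMIs per nucleus were 1948 to 3378 in CO and 1094 to 4873.5 in KO, and median mitochondrial shares were 1.33% to 6.76% and 0.889% to 6.21%. Nuclei were brought to 10000 counts each on a log scale; 2000 variable genes without the guidance genes, 30 principal components, a Harmony-type correction by library and a graph of 20 neighbours gave 21 clusters (leidenalg 0.10.2, resolution 1, scanpy 1.11.5, Python 3.11.15). Clusters were named from marker lists of 14 classes; 3 clusters that were shallow, rich in doublet scores or led by genes of another class stayed unnamed.

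Raw counts were summed per library and class and tested with the edgeR 4.0.16 quasi-likelihood F-test (TMM, filterByExpr, R 4.3.3), with Benjamini-Hochberg adjustment over all genes tested; a class needed 20 nuclei in every library. DESeq2 1.42.0 was an alternative. Class shares were compared by exact permutation (scipy 1.17.1). Scripts were checked on simulated data. Levels are unscaled CPM, whereas fold changes are on the TMM scale. Replicates of a group differed by more than sampling noise (chi-square per degree of freedom 8.76 to 202). Gene positions are those of the GENCODE vM21 annotation (GRCm38). Several genes, Sema3a among them, overlap annotated genes of the same strand, whose reads may not be separable.

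Guidance genes given with all libraries were those with the most counts per family (5 semaphorins, 5 plexins or neuropilins, 3 ephrins, 4 Eph receptors, 1 netrin, 2 netrin receptors), in whichever of the macrophage-like and mesenchymal-like classes they were higher, the 3 with the smallest p in each class, and in each small class the 2 with the largest level over the macrophage-like and mesenchymal-like classes at 20 counts or more. From the other pathway genes, the 2 with the smallest p in each of the 2 main classes were named. Genes outside this rule (Sema4d, Plxnc1, Sema4a, Plxnd1 and Plxna1 in macrophage-like nuclei, the genes of single clusters, Slc16a7 and the lung and marker genes) were named after their values were seen. The members and all lists were chosen with earlier results of these data known.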

Additional observations from a re-analysis of the deposited data

How the results depend on the processing

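The counts of called guidance genes stayed at 0 with DESeq2, beside 5 to 22 calls among all genes in each comparison. They also stayed at 0 with library totals in place of TMM and with stricter nuclei (at least 500 genes and under 5% mitochondrial counts). So they did with doublets kept, with classes from marker counts, without shared barcodes and in nuclei of at most 3000 UMIs. The latter and the shared barcodes were chosen after seeing the data. Without the filter on low counts, 2 of 59 were called in T/NK-like nuclei (Sema4d and Sema6a, the latter mostly on counts of KO replicate 1), beside 0.677% of all genes, and 4 of 62 in the interaction (Nrp2, Neo1, Ntn1 and Efna5), beside 1.05%. Leaving out each library in turn gave 0 to 8 called guidance genes in macrophage-like nuclei, 0 to 4 in mesenchymal-like nuclei and 0 to 5 in the interaction, and 0 to 10 and 0 to 7 of the other pathway genes, with every call above 0 coming without KO replicate 1; the cause was not tested. The differences in class share (KO minus CO) ranged over the same omissions from -7.19 to 6.01 percentage points for macrophage-like, -4.47 to 10.8 for mesenchymal-like and -1.95 to 0.0533 for T/NK-like nuclei, around -0.717, 2.92 and -0.821, and with stricter nuclei those of the macrophage-like and mesenchymal-like classes were -9.68 and 11.6. With classes from marker counts, added after seeing the data, they were -8.03 (exact permutation p = 0.4) and 15.8 (p = 0.2), and without shared barcodes -0.792 and 2.96. Of 31 log2 fold changes given, 23 kept their sign under every alternative. In mesenchymal-like nuclei the ranges when each library was left out crossed 0 for Sema5a (-0.61 to 0.51), Sema7a (-0.15 to 0.0099), Plxna1 (-0.068 to 0.16), Ephb4 (-0.19 to 0.092), Ephb2 (-0.91 to 0.088), Ntn1 (-0.034 to 0.29) and Unc5b (-0.28 to 0.0015). Plxna1 was also at -0.057 with library totals, -0.045 with stricter nuclei and -0.0092 with classes from marker counts, and nuclei of at most 3000 UMIs turned Sema7a to 0.33 and Unc5b to 0.029. In macrophage-like nuclei Plxnb2 turned to -0.076 with classes from marker counts. The log2 fold change of Sema4d in T/NK-like nuclei was 0.64 with stricter nuclei and 0.37 with classes from marker counts. The labels do not say whether replicate numbers pair the samples, and the main fits did not use them. The correlation of deviations between CO and KO replicates 1, 2 and 3 was 0.50, -0.24 and 0.26 in mesenchymal-like nuclei. In macrophage-like nuclei it was 0.26, -0.28 and 0.29. Median mitochondrial shares of replicates 1, 2 and 3 were 6.76%, 3.97% and 1.33% in CO and 6.21%, 3.82% and 0.889% in KO. A batch shared by replicate number was not tested further. With the replicate number as a block, 0 guidance genes were called in each sum. Few nuclei limit the small classes, and counts of 3 to 10 limit Sema4c in T/NK-like nuclei.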
